A study of Homo sapiens with 4 samples.

Results

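The genes described here are 10 genes of cell-to-cell adhesion and of the epithelial-mesenchymal transition (EMT): the cadherins CDH1, CDH2 and CDH3, the catenins CTNNB1 and JUP, the tight junction gene OCLN, the mesenchymal products VIM and FN1, and the transcription factors SNAI2 and TWIST1. They were taken by name from the array annotation, where 17 probes carry these 10 names among 30982 gene names and 41000 probes. The rule used names and no measured value, although earlier results of these data were known when these genes and the lists of other genes were chosen.

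The study transfected 2 human squamous cell carcinoma lines with tumour-suppressive miRNA candidates and measured mRNA on Agilent oligo-microarrays read in 2 colours. FaDu is an established line from a hypopharyngeal carcinoma and HSC3 one from a tongue carcinoma, so each stands for 1 line and not for a tumour site. Each line received miR-489 on 1 array and miR-504 on another, 4 arrays in all, and each sample was a transient transfection harvested at 72 h. On every array the miRNA transfectant was labelled with Cy5 and a control miRNA transfectant of the same line with Cy3. The dyes were never swapped, so the effect of a miRNA over its control cannot be told apart from a difference between the dyes. There was 1 array per condition. The 2 control samples of a line were treated as replicates for the comparison of the lines, but no source used here says that they came from separate cultures, and p-values may measure technical spread only.

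E-cadherin (CDH1), P-cadherin (CDH3) and N-cadherin (CDH2) are calcium-dependent adhesion receptors. Inside the cell they bind β-catenin (CTNNB1) or plakoglobin (JUP), which link them to the actin cytoskeleton, and plakoglobin also serves desmosomes. In EMT, carcinoma cells lose epithelial junction proteins and gain intermediate filaments of vimentin (VIM) and matrix proteins such as fibronectin (FN1). SNAI2 (Slug) and TWIST1 are among the transcription factors known to drive that change, in part by binding the CDH1 promoter. Stratified squamous epithelium normally makes E-cadherin and P-cadherin and little vimentin.

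The mature sequences of the transfected miRNAs are shown because every Cy5 value below comes from cells that received one of them. The labels name no arm, so the mature forms held in RefSeq for the 2 hairpins (build GRCh38.p14) are given, 5′ to 3′, with the seed (bases 2 to 8) in capitals.
hsa-miR-489-3p: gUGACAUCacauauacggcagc
hsa-miR-504-5p: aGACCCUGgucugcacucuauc
hsa-miR-504-3p: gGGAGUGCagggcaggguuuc
The first lies on the minus strand at chr7:93483947-93483968. The miR-504 arms lie on the minus strand at chrX:138667760-138667781 and chrX:138667724-138667744. The 3 seeds differ from each other.

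Signals are background-subtracted median intensities, scaled so that the 4 arrays share a median in each channel, with no unit. A probe was called well above background by the scanner software when its signal cleared the local background. Of the 17 probes, 10 passed that mark in Cy3 on all 4 arrays and entered the test, which left 9 of the 10 genes (all but CDH2). In Cy5, 13 probes passed. The other probes are reported by their signals. The median difference between the 2 control samples over all probes tested was 0.15 on the log2 scale in FaDu and 0.19 in HSC3. At least 2-fold differences were found for 0.607% of probes in FaDu and 1.62% in HSC3. Keratinocyte markers on the array (KRT5, KRT14 and TP73L, the older name of TP63) were well above background on all arrays, with a summed Cy3 signal of 30768 to 59999. The summed Cy3 signals of 4 fibroblast markers (DCN, LUM, PDGFRA, PDGFRB) were 62.2 to 109, of 3 endothelial markers 58.0 to 105 and of 3 leukocyte markers 81.3 to 135. Of the fibroblast markers, LUM and PDGFRB were not well above background on any array, and no more than 1 of the 4 passed on any array. Of the others, CD14 passed on all arrays and VWF on 1, and PECAM1, CDH5, PTPRC and CD3E on none. The part of other cells in the results was not tested.

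The control transfectants of the 2 lines were first compared with each other. VIM, FN1 and SNAI2 were higher in HSC3 than in FaDu, OCLN was lower, and CDH1, CDH3, CTNNB1, JUP and TWIST1 did not pass the test. Thus 4 of 10 probes tested were called (limma, Benjamini-Hochberg adjusted p under 0.05), against 48.5% of all 20914 probes tested. 3 were higher and 1 was lower in HSC3, where 20.4% and 28.2% of all probes were. VIM and FN1 were also at least 2-fold apart, as were 20.8% of all probes (9.55% higher and 11.3% lower). The median difference of the 10 probes was 0.07 on the log2 scale (HSC3 minus FaDu), beside -0.08 over all probes.

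**Figure D1:**
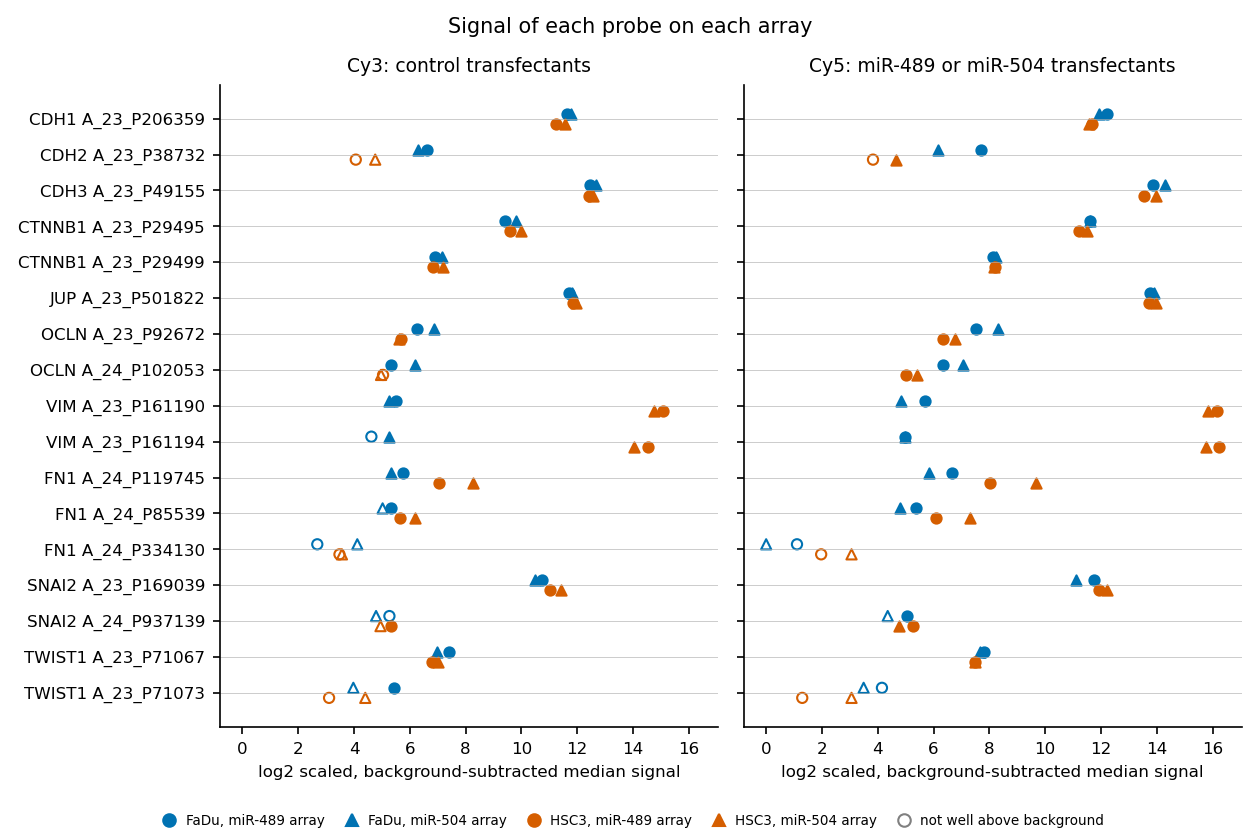
Log2 signal of each of the 17 probes (horizontal axis, no unit) in the control channel Cy3 (left) and the miRNA channel Cy5 (right), 1 point per array. Blue is FaDu, orange HSC3, circles are miR-489 arrays, triangles miR-504 arrays, and open symbols were not well above background. The VIM probes stand at 14.03 to 15.08 in HSC3 and 4.62 to 5.49 in FaDu in Cy3, while the CDH1, CDH3 and JUP points of the 2 lines lie close together.

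Both lines held E-cadherin and P-cadherin transcript far above background. The CDH1 probe, printed in 10 spots, read 3204 and 3479 in the FaDu controls and 2439 and 3026 in the HSC3 controls. Both HSC3 values were below both FaDu values. The difference was -0.30 ± 0.17 on the log2 scale (HSC3 minus FaDu, SE, n = 2 against 2, 95% confidence interval -0.70 to 0.10, limma adjusted p = 0.185). CDH3 read 5627 and 6493 in FaDu and 5545 and 6044 in HSC3, and the ranges overlapped. Its difference was -0.06 ± 0.16 (95% confidence interval -0.43 to 0.31, limma adjusted p = 0.766). These intervals leave room for differences as large as -0.70 and -0.43 on the log2 scale.

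CDH2 was weak and was found in FaDu. Its probe read 97.5 and 77.7 in the FaDu controls, and 16.7 and 27.1, not well above background, in the HSC3 controls. Since HSC3 gives only an upper limit, the level in FaDu was at least 2.05-fold higher, on a scale normalised by normexp, loess and Aquantile (mean log2 values 7.30 and 6.21). This bound has no test. In the miRNA channel CDH2 read 208 and 71.1 in FaDu and 14.2 (not well above background) and 25.01 in HSC3.

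The catenins did not pass the test between the lines. JUP read 3371 and 3636 in FaDu and 3695 and 4017 in HSC3 (difference 0.14 ± 0.15, 95% confidence interval -0.22 to 0.49, limma adjusted p = 0.476). Both HSC3 values of JUP were above both FaDu values. CTNNB1 has a probe of 10 spots, which read 673 and 898 in FaDu and 768 and 1003 in HSC3, and a weaker probe, which read 119 and 141 in FaDu and 115 and 147 in HSC3. Their differences were 0.18 ± 0.21 and 0.00 ± 0.18, with limma adjusted p = 0.517 and 0.990. On both CTNNB1 probes the control of the miR-489 array read lower than that of the miR-504 array in each line, with differences of -0.25 to -0.42 on the log2 scale, larger in size than either difference between the lines.

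Occludin (OCLN), a membrane protein of tight junctions, was lower in HSC3. The brighter OCLN probe read 77.2 and 116 in the FaDu controls and 51.7 and 48.7 in the HSC3 controls, with no overlap. The difference was -0.91 ± 0.21 on the log2 scale, a 1.88-fold higher level in FaDu (95% confidence interval 1.33 to 2.67, limma adjusted p = 0.0113). Without the FaDu miR-504 array it was -0.62 and no longer passed (limma adjusted p = 0.0678). It was -0.59 with no background subtraction and -1.45 with the Agilent processed signal. The second OCLN probe read 39.7 and 72.8 in FaDu and was not well above background in HSC3 (33.0 and 31.3). After normexp, loess and Aquantile its level was 1.35-fold higher in FaDu. That is the measured difference, which is not a strict lower limit and has no test.

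Among the 10 genes, VIM differed most. Its first probe read 45.0 and 38.6 in the FaDu controls and 34684 and 27753 in the HSC3 controls. The difference of 9.54 ± 0.18 on the log2 scale was the largest in absolute size of all 20914 probes tested, a 745-fold higher level in HSC3 (95% confidence interval 557 to 996, limma adjusted p = 2.15e-06). The second VIM probe read 24.7 (not well above background) and 38.6 in FaDu and 23996 and 16696 in HSC3. The FaDu signals lay close to the background, so the fold depends on how the background is removed: the difference was 8.36 with normexp, 8.17 with no background subtraction and 10.37 with the Agilent processed signal, and it was called in each of the 12 alternatives. In bulk RNA, the share of cells that make vimentin and the amount per cell cannot be told apart.

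**Figure D2:**
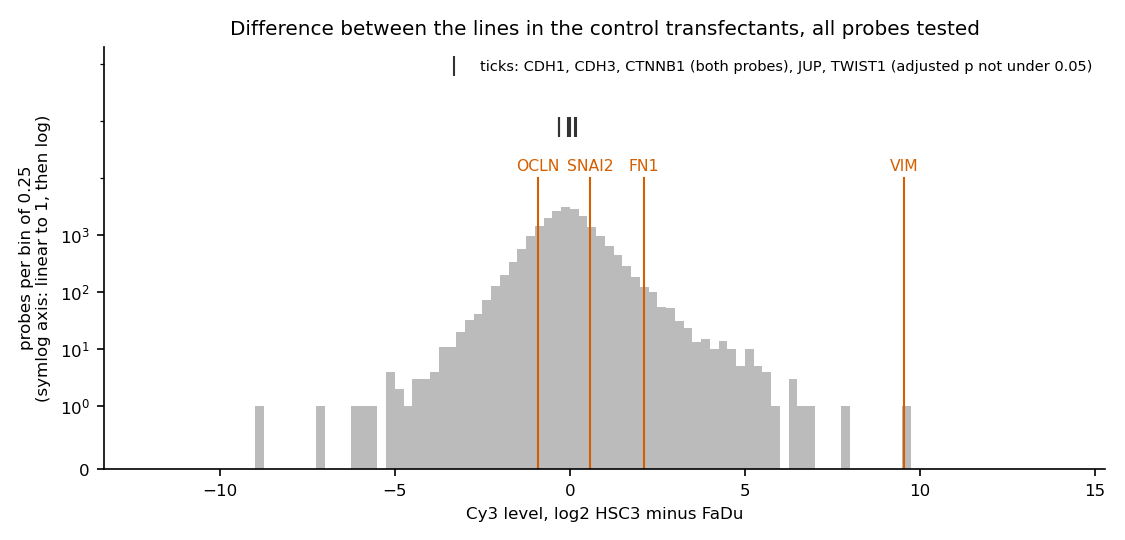
Histogram of the difference in control (Cy3) level between HSC3 and FaDu (log2, horizontal axis) over the 20914 probes tested, with the number of probes per bin on an axis that is linear near 0 and logarithmic above. Orange lines mark OCLN, SNAI2, FN1 and VIM, which passed the test. The dark ticks mark the other 6 probes, which lie within 0.30 of 0, and VIM lies at the right end of the distribution.

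FN1, the gene of the matrix protein fibronectin, was higher in HSC3 but uneven between the HSC3 arrays. Its probe of 10 spots read 54.1 and 39.7 in the FaDu controls and 134 and 305 in the HSC3 controls, so the lines did not overlap. The difference was 2.12 ± 0.37 on the log2 scale, 4.36-fold (95% confidence interval 2.38 to 7.98, limma adjusted p = 0.00337). The HSC3 controls differed from each other by -1.19 on the log2 scale (miR-489 array minus miR-504 array), and the difference between the lines was 1.53 without the HSC3 miR-504 array and 2.72 without the HSC3 miR-489 array. The FaDu signals lay close to the background, and with no background subtraction the difference between the lines was 1.24. A second FN1 probe read 40.2 and 32.6 (the latter not well above background) in FaDu and 49.7 and 73.7 in HSC3. The remaining FN1 probe, annotated to another FN1 transcript than these probes, was not well above background on any array in either channel. Whether that transcript was absent or the probe weak was not tested.

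SNAI2 was moderately higher in HSC3. The brighter SNAI2 probe read 1728 and 1447 in the FaDu controls and 2069 and 2710 in the HSC3 controls, with no overlap. The difference was 0.58 ± 0.19 on the log2 scale, 1.497-fold (95% confidence interval 1.10 to 2.04, limma adjusted p = 0.0397). It no longer passed without the FaDu miR-489 (0.71, limma adjusted p = 0.0651), FaDu miR-504 (0.45, limma adjusted p = 0.206) or HSC3 miR-504 array (0.39, limma adjusted p = 0.139), nor when probes above background in 1 line only were tested with it (limma adjusted p = 0.0557). The other SNAI2 probe read 27.7 to 40.6 and was well above background in Cy3 on the HSC3 miR-489 array only. TWIST1 read 169 and 127 in FaDu and 111 and 129 in HSC3 with its brighter probe (difference -0.30 ± 0.19, 95% confidence interval -0.75 to 0.15, limma adjusted p = 0.234). The other TWIST1 probe was well above background in Cy3 on the FaDu miR-489 array only, with 43.4.

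The miRNA channel gives the same comparison in cells that received miR-489 or miR-504, labelled with the other dye, and on the same arrays. The fit holds a term for the miRNA, which is lost where an array is left out below. Of 13 probes tested in Cy5, 6 were called, against 48% of all 22489 probes tested. There were 4 higher and 2 lower in HSC3, where 20.2% and 27.8% of all probes were. Each of the 6 was at least 2-fold, as were 24.6% of all probes (10.9% higher and 13.8% lower). VIM, FN1 and OCLN were called with both of their tested probes, in the same directions as in Cy3. SNAI2 was not called (0.64 ± 0.27, limma adjusted p = 0.115). VIM read 51.6 and 28.2 in FaDu and 73016 and 58193 in HSC3 with the first probe, and 31.7 and 31.7 in FaDu and 77449.9 and 55168 in HSC3 with the second. The differences were 10.74 ± 0.19 and 11.01 ± 0.18 (limma adjusted p = 0.00204 for each).

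OCLN read 184 and 316 in FaDu and 81.9 and 109 in HSC3 in the miRNA channel with the brighter probe, and 81.7 and 132 against 31.9 and 42.6 with the other. The differences were -1.35 ± 0.16 and -1.49 ± 0.15 (limma adjusted p = 0.0068 and 0.00519), and neither probe passed without the FaDu miR-504 or the HSC3 miR-489 array (limma adjusted p = 0.0635 to 0.0966). FN1 read 102 and 57.3 in FaDu and 260.2 and 825 in HSC3 with its probe of 10 spots (2.60 ± 0.62, limma adjusted p = 0.031). Without the HSC3 miR-504 array that value was 1.77, and without the FaDu miR-504 array it no longer passed (2.18, limma adjusted p = 0.0944). The second FN1 probe read 41.4 and 27.6 in FaDu and 67.6 and 159 in HSC3 (1.62 ± 0.46, limma adjusted p = 0.0483). It was called in 6 of 12 alternatives, and not without the FaDu miR-489 (1.91), FaDu miR-504 (1.32) or HSC3 miR-504 array (0.9997), nor with no background subtraction (0.73).

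CDH1 read 4767 and 3877 in FaDu and 3289.7 and 3030.5 in HSC3 in the miRNA channel, again with both HSC3 values below both FaDu values. The difference of -0.45 ± 0.15 did not pass (95% confidence interval -0.84 to -0.05, limma adjusted p = 0.0673). It did pass with normexp (-0.42, limma adjusted p = 0.0362), no background subtraction (-0.42), loess with Aquantile (-0.39) and among the brighter probes only (limma adjusted p = 0.029).

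**Figure D3:**
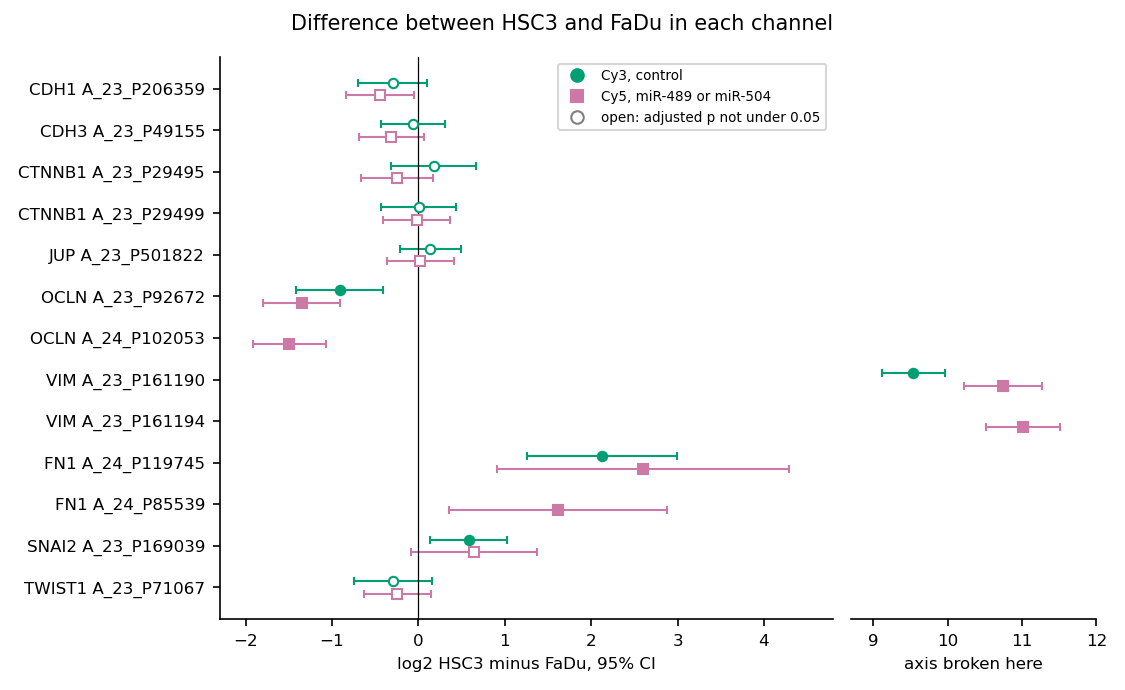
Difference between HSC3 and FaDu (log2, horizontal axis, broken below the VIM values) for each probe tested in the control channel (green circles) and the miRNA channel (pink squares), with 95% confidence intervals from limma. Filled symbols passed an adjusted p of 0.05. VIM lies at 9.54 to 11.01, FN1 at 1.62 to 2.60 and OCLN at -0.91 to -1.49, and the intervals of CDH3, CTNNB1, JUP and TWIST1 span 0 in each channel tested.

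Other genes of the same structures and of EMT were examined as lists, each gene by its brightest probe, in the control transfectants. The genes named are up to 2 per direction with the largest called difference, unless stated. Among epithelial regulators, 0 of 10 tested were higher and 8 were lower in HSC3, where 20.4% and 28.2% of all probes were, with a median difference of -1.06 beside -0.08 over all probes. Of the 3 squamous epithelium markers, by contrast, KRT14 (0.93 ± 0.20, and 3.75 with its other probe) and TP73L (0.69 ± 0.21) were higher in HSC3 and KRT5 was not called (0.40 ± 0.26). The other TP73L probe gave 0.51 and was not called. In the miRNA channel 0 of the 3 markers were called in either direction. ELF3, an epithelial transcription factor, differed by -3.74 ± 0.29 (limma adjusted p = 1.9e-04): it read 1108 and 1449 in FaDu and 70.0 and 129 in HSC3. OVOL1, a transcription factor that restrains EMT, differed by -1.58 ± 0.41. RBM35A, the older name of the epithelial splicing factor gene ESRP1, differed by -1.56 ± 0.21 and was chosen after its value was seen.

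Of 21 mesenchymal products on the array, 12 were tested, 8 were higher and 2 lower in HSC3 (20.4% and 28.2% of all probes), with a median of 1.35. TNC, which encodes the matrix protein tenascin-C, differed by 4.51 ± 0.59, and read 39.7 and 32.0 in FaDu and 1685 and 390 in HSC3. TGFBI, a matrix protein induced by TGF-β, differed by 4.22 ± 0.27. S100A4 (-1.15 ± 0.23) and COL5A2 (-0.47 ± 0.15) were lower in HSC3. Of the 9 not tested, 5 were well above background in HSC3 only, 1 in FaDu only and 3 in neither line. SPARC, a secreted matrix glycoprotein named after its value was seen, read 14569 and 11988 in HSC3 and 15.005 and 10.9, not well above background, in FaDu, a level at least 235-fold higher in HSC3. COL1A1, COL5A1, LOX and FBN1, also named after their values were seen, were well above background in both HSC3 controls and in neither FaDu control. Levels of LOX and FBN1 were at least 2.28- and 3.09-fold higher in HSC3, bounds without a test. Those of COL1A1 and COL5A1 were 1.25- and 4.24-fold higher, the measured differences, which are not strict lower limits. COL1A2, COL3A1 and MMP2 were not well above background in either line.

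Few other EMT transcription factors were above background in both lines. Of 10 on the array 3 were tested, of which SNAI1 (-1.46 ± 0.15) and TCF3 (-0.67 ± 0.17) were lower in HSC3 and FOXC2 was not called. Thus 0 were higher and 2 lower, where 20.4% and 28.2% of all probes were. In the miRNA channel 6 were tested, and 0 were higher and 5 lower in HSC3 (20.2% and 27.8% of all probes). Their median there was -1.68, beside -0.10 over all probes. SNAI1, which encodes Snail, read 93.2 and 86.9 in FaDu and 33.5 and 31.8 in HSC3. The genes that follow were named after their values were seen. TWIST2, a close relative of TWIST1, read 743 and 605 in FaDu and 33.5 and 24.99 in HSC3, where only 1 of 2 controls was well above background, and in the miRNA channel the difference was -5.91 ± 0.25 (HSC3 minus FaDu, limma adjusted p = 0.00282). TCF8, the older name of ZEB1, read 63.8 and 77.1 in FaDu and was not well above background in HSC3, and ZFHX1B, the older name of ZEB2, was not in either line. KLF8 was well above background in HSC3 only (193 and 155 against 14.5 and 20.6). PRRX1 was well above background in 1 FaDu control only, and TCF4 and GSC on some arrays only.

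**Figure D4:**
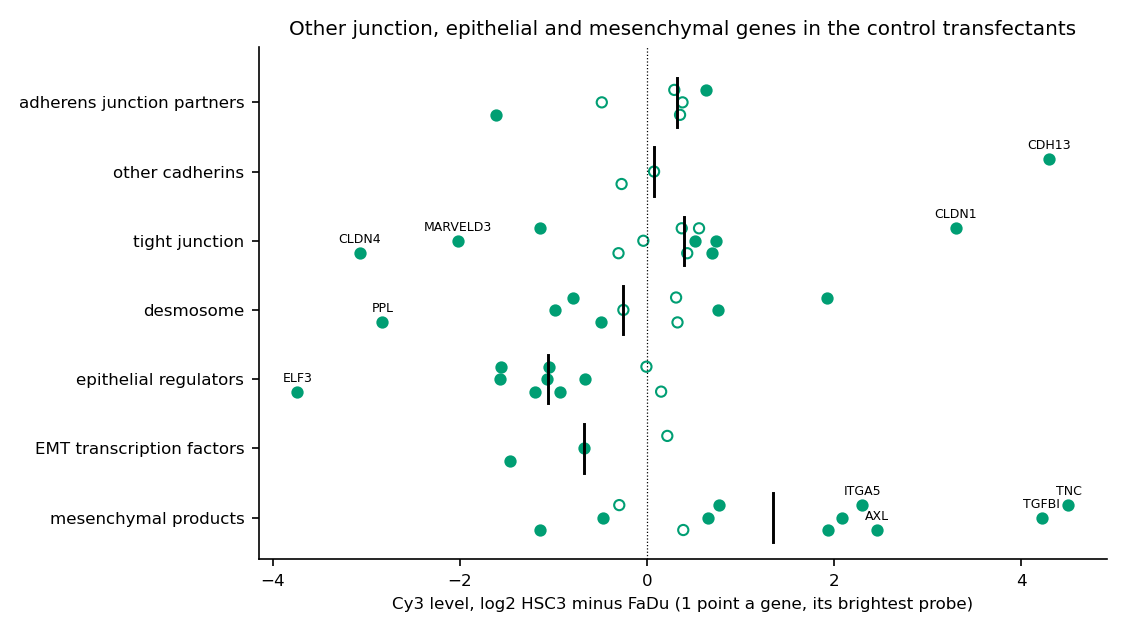
Difference between HSC3 and FaDu in the control channel (log2, horizontal axis) of the other genes by list, 1 point per gene by its brightest probe. Filled points passed an adjusted p of 0.05, black bars are list medians, and the farthest genes are named. Epithelial regulators have a median of -1.06 and mesenchymal products of 1.35, while the junction lists hold called genes in both directions.

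Junction genes were called in both directions, as were 20.4% (higher) and 28.2% (lower) of all probes. Of 12 tight junction genes tested 4 were higher and 3 lower in HSC3: CLDN1 differed by 3.30 ± 0.28, CLDN4 by -3.07 ± 0.16 and MARVELD3, of the same protein family as occludin, by -2.02 ± 0.16. Of 9 desmosome genes 2 were higher and 4 lower, led by PKP1 (1.93 ± 0.30) and PKP3 (0.76 ± 0.16) above and PPL (-2.83 ± 0.23) and PKP2 (-0.98 ± 0.15) below. Of 6 adherens junction partners, p120-catenin (CTNND1), which stabilises cadherins at the membrane, differed by -1.62 ± 0.19, PVRL2 was higher by 0.63 ± 0.17 and α-catenin (CTNNA1) was not called with the brightest probe (0.35 ± 0.15, limma adjusted p = 0.0832). Among the other cadherins 3 of 7 were tested and CDH13 (T-cadherin, which lacks a cytoplasmic tail) was higher in HSC3 by 4.30 ± 0.15, reading 54.7 and 52.1 in FaDu and 1019 and 1082 in HSC3. GAPDH (-0.44 ± 0.16, limma adjusted p = 0.0529) and ACTB (-0.00 ± 0.15, limma adjusted p = 0.983) were not called.

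The miRNA transfectants were then compared with the control on each array, as the log2 ratio of Cy5 over Cy3 centred on the median of the array. A single array has no test. Of the 17 probes, 16 were well above background in at least 1 channel on at least 1 array, and 12 of their values were at least 2-fold, 10 higher and 2 lower. A probe can count on several arrays. The higher values came from JUP, the CTNNB1 probe of 10 spots, the second VIM probe and CDH3 only. The lower ones came from the first VIM probe and the weaker TWIST1 probe. Of all probes, 2.95% (miR-489) and 2.35% (miR-504) were at least 2-fold higher on the FaDu arrays and 2.82% and 1.95% on the HSC3 arrays, while 7.96% and 5.44% in FaDu and 7.45% and 4.55% in HSC3 were at least 2-fold lower. With loess, 7 values were at least 2-fold (6 higher), and with normexp and loess 6.

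JUP gave the steadiest ratios. The log2 ratio was 1.47 and 1.498 in FaDu with miR-489 and miR-504, and 1.35 and 1.43 in HSC3, so all 4 arrays lay within 0.15 of each other. The CTNNB1 probe of 10 spots gave 1.63 and 1.22 in FaDu and 1.10 and 0.95 in HSC3, and the weaker probe 0.67 and 0.55 in FaDu and 0.82 and 0.40 in HSC3. CDH3 gave 0.80 and 1.07 in FaDu and 0.58 and 0.83 in HSC3. These 4 probes were above the array median on every array with either miRNA, and so were GAPDH (mean 0.98 over the lines with miR-489 and 0.85 with miR-504) and ACTB (1.04 and 0.92).

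The CDH1 ratio was lower with miR-504 than with miR-489 in each line, a difference that did not pass the test (limma adjusted p = 0.166). Its log2 ratio was -0.01 in FaDu and -0.10 in HSC3 with miR-489, and -0.40 and -0.57 with miR-504. The spots of the probe had an SD of 0.03 to 0.07 within an array, which covers technical error only. SNAI2 gave 0.40 and 0.37 with miR-489 in FaDu and HSC3, and 0.03 and 0.23 with miR-504. OCLN gave 0.67 and 0.13 with miR-489 and 0.89 and 0.60 with miR-504, and the brighter TWIST1 probe lay between -0.19 and 0.18. The other TWIST1 probe gave -1.87 on the FaDu miR-489 array, where Cy5 was not well above background. That is the measured ratio and not a strict bound.

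VIM ratios lay below the array median in FaDu and above it in HSC3, with values that differed between its probes. The difference between the lines did not pass the test for the first probe (limma adjusted p = 0.347) and was not tested for the second. The first probe gave -0.39 and -1.01 in FaDu and 0.55 and 0.50 in HSC3, and the second -0.22 (control not well above background) and -0.84 in FaDu and 1.16 and 1.16 in HSC3. After loess the HSC3 values of the first probe were 0.26 and 0.22, and its difference between the lines was 0.39, against 1.22 before. The FaDu signals of VIM lay close to the background. FN1 gave 0.33 and -0.03 in FaDu and 0.43 and 0.87 in HSC3. CDH2 gave 0.51 with miR-489 and -0.69 with miR-504 in FaDu, where it was above background in each channel.

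**Figure D5:**
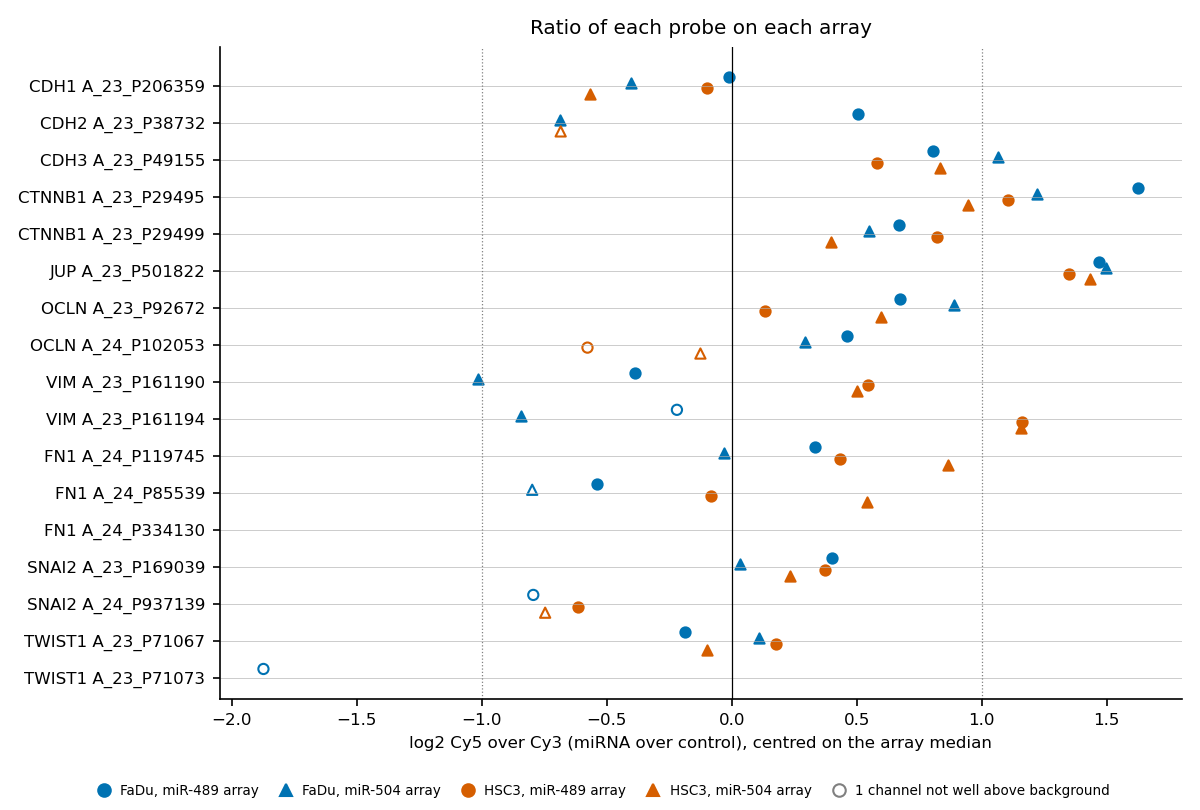
Log2 ratio of the miRNA transfectant (Cy5) over the control (Cy3), centred on the array median, for each probe (rows) and array (points). Dotted lines mark 2-fold, open symbols have 1 channel not well above background, and probes with neither channel above it are not drawn. JUP lies between 1.35 and 1.498 on the 4 arrays, and the CDH1 points of the miR-504 arrays lie left of those of the miR-489 arrays.

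With the 2 lines taken as replicates of a miRNA, 5 of 10 probes were called for miR-489 against control, against 57.2% of all 20751 probes tested, and each was higher with the miRNA, as were 31.3% of all probes (25.9% were lower). They were JUP (1.41 ± 0.08, limma adjusted p = 7.68e-04), both CTNNB1 probes (1.37 ± 0.15 and 0.75 ± 0.09), CDH3 (0.69 ± 0.10) and SNAI2 (0.39 ± 0.09, limma adjusted p = 0.0143). For miR-504, 6 of 10 were called, against 50% of all probes (27.1% higher and 22.9% lower). JUP (1.47 ± 0.08), both CTNNB1 probes (1.08 ± 0.15 and 0.47 ± 0.09), CDH3 (0.95 ± 0.10) and OCLN (0.74 ± 0.15, limma adjusted p = 0.0127) were higher, and CDH1 was lower (-0.49 ± 0.08, limma adjusted p = 0.00782). In either direction these shares are near those of all probes. The shares called higher (5 of 10 for each miRNA, with both CTNNB1 probes among them) were larger. Brighter probes (mean Cy3 above the median) were also called higher more often, 4591 of 10375 for miR-489 and 4148 for miR-504. JUP, CDH3, SNAI2 and the CTNNB1 probe of 10 spots belong to that brighter set. Whether the members exceed the share of equally bright probes was not tested. With 2 arrays a miRNA, SNAI2 was lost without either miR-489 array (limma adjusted p = 0.076 and 0.063), and CDH1, OCLN and the weaker CTNNB1 probe were lost without either miR-504 array (limma adjusted p = 0.0544 to 0.126). The CTNNB1 probe of 10 spots was lost without the FaDu miR-504 array (0.95, limma adjusted p = 0.053). FN1 (0.38 with miR-489 and 0.42 with miR-504) and, with miR-489, OCLN (0.40) were not called, but each passed in 5 of 12 alternatives, among them the deposited ratios and the value table, which hold the same values.

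The direct comparison of the miRNAs, miR-489 minus miR-504, removes what the dyes share. 0 of 10 probes were called (limma), where 1.09% of all 20751 probes were (0.342% higher and 0.747% lower), and 1 probe had an unadjusted p under 0.05. That was CDH1, whose log2 ratio was higher with miR-489 than with miR-504 by 0.39 in FaDu and 0.47 in HSC3 (mean 0.43 ± 0.12, 95% confidence interval 0.13 to 0.73, limma adjusted p = 0.166). The signals of the miRNA channel alone differed by less, 0.30 in FaDu and 0.12 in HSC3, and the controls by -0.12 and -0.31. For the other members the estimates lay between -0.34 (OCLN) and 0.34 (VIM). Among the listed genes the desmosome gene PKP1 (-1.10 ± 0.12, limma adjusted p = 0.0338) and OVOL1 (-0.89 ± 0.11, limma adjusted p = 0.0395) were lower with miR-489 than with miR-504. With any 1 array left out, no probe was called in this comparison, these included.

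The difference between the lines in the ratio was tested last. 0 of 10 probes were called (limma), as were 0 of all 20751, while 3 of the 10 and 1526 of all probes had an unadjusted p under 0.05. The 3 were VIM (HSC3 minus FaDu 1.22 ± 0.18, limma adjusted p = 0.347), OCLN (-0.42 ± 0.13) and the CTNNB1 probe of 10 spots (-0.40 ± 0.13). VIM passed with normexp (0.93, limma adjusted p = 0.036) and with no background subtraction (1.204, limma adjusted p = 0.00234), and its value was as low as 0.26 among the alternatives.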

How the data were processed

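Total RNA of 4 miRNA transfectants, each beside a control transfectant, was hybridised to 4 two-colour Agilent arrays on 1 slide. Each array has 43376 spots that are not control spots. The deposited scanner files hold spot intensities (median, mean, background and processed signals) and log10 ratios of Cy5 over Cy3 made with Agilent Feature Extraction 9.5.3.1, with linear and LOWESS dye normalisation per the file headers. The deposited value table equals those log10 ratios (largest difference 0). Its scale and direction are thus known, and it was used as an alternative. The study's methods name other software and a global normalisation.

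Control spots and outlier spots were left out (118 to 137 spots per array), and no spot was saturated. Median background was subtracted, each channel was scaled to a common median over the 4 arrays, values under 1 were set to 1, and log2 was taken. Log2 ratios were centred on each array's median, which removed 0.44 to 0.65. Spots of a probe were averaged, and a probe was well above background where at least 0.5 of its spots were marked so by the software. This held for 58.2% to 59.2% of spots in Cy3 and 61.2% to 62.6% in Cy5. The number of arrays limits the precision.

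Tests used limma 3.58.1 (lmFit, eBayes) in R 4.3.3 over all probes well above background on all 4 arrays, with Benjamini-Hochberg adjustment at 0.05. They were run on simulated data first. Cy3 levels were compared by line, Cy5 levels and ratios by line with a miRNA term, and ratios by miRNA with the lines as replicates (2 residual degrees of freedom). Bounds used normexp (offset 50), loess and Aquantile. A dim array entered at its measured level, or at its weakest level well above background where that was higher. A bound can therefore equal the measured difference. The 10 genes were each described with every probe. Other genes were counted by their brightest probe, and the named ones are up to 2 in each direction with the largest called difference in Cy3, plus those called between the miRNAs. A gene that this rule picks among the tight junction genes is not reported here. Genes are called as the array annotation calls them. The genes and lists were chosen with earlier results of these data known. Alternatives changed the background correction, normalisation, filters, model terms and arrays used. With an array left out, the fits of Cy5 levels and of ratios by line also lost the miRNA term.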

Additional observations from a re-analysis of the deposited data

Results flagged for a closer look

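The log2 ratio of Cy5 over Cy3 of 3 probes lay on one side of the array median in both FaDu arrays and on the other side in both HSC3 arrays. The difference between the lines was not tested for the second OCLN and second VIM probe, and did not pass for the first VIM probe.

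For the first VIM probe the ratio was -0.39 (miR-489) and -1.01 (miR-504) in FaDu and 0.55 and 0.50 in HSC3. After loess it was 0.09 and -0.38 in FaDu and 0.26 and 0.22 in HSC3. For the second VIM probe it was -0.22 and -0.84 in FaDu and 1.16 and 1.16 in HSC3, and after loess 0.61 and -0.25 in FaDu and 0.88 and 0.90 in HSC3. The FaDu signals of VIM were 24.7 to 45.0 in Cy3, and the weakest Cy3 signal well above background was 20.0 to 25.5 by array before scaling. After loess the lines no longer lay on opposite sides of the median for either VIM probe. Both HSC3 values still lay above both FaDu values with each probe.

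For the second OCLN probe the ratio was 0.46 and 0.29 in FaDu and -0.58 and -0.13 in HSC3, where the control signal was not well above background. After loess it was 0.85 and 0.42 in FaDu and 0.21 and 0.41 in HSC3, all above the median.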

How the results depend on the processing

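The 4 calls between the lines in Cy3 were 2 among the brighter probes only, where FN1 and OCLN were too weak to enter, and 2 to 4 when an array was left out (2 without the FaDu miR-504 array). In Cy5 the 6 calls were 3 among the brighter probes and 2 to 5 with an array left out. Leaving out an array gave 4 to 6 calls for miR-489 and 3 to 6 for miR-504 (3 without either miR-504 array), and 0 throughout for miR-489 minus miR-504 and for the ratio by line. The ratio by line gave 1 call with normexp and 1 with no background subtraction, both VIM. The 12 single-array values of at least 2-fold were 7 after loess and 6 after normexp and loess. VIM between the lines was called in every alternative run, in each channel, as were JUP and CDH3 for each miRNA. The cause of the changes was not tested.

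Over all probes, the calls for miR-489 minus miR-504 rose from 226 to 657 with normexp, 484 with no background subtraction, 782 with normexp and loess, 408 with the deposited ratios, 656 among the brighter probes and 415 with the line as a block, and were 0 with any array left out. The ratio by line went from 0 to 17 (normexp) and 187 (no subtraction). For Cy5 by line they were 7498 without the miRNA term, against 10784. They were fewer still with an array left out, which also drops that term. For miR-504 they were 3551 without the FaDu and 4157 without the HSC3 miR-504 array, against 10375.

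Of the single values that changed sign under another background correction or normalisation, CDH1 for miR-489 passed in 1 alternative, normexp and loess (-0.23, limma adjusted p = 0.0409). Between the lines in Cy3, the weaker CTNNB1 probe was -0.038 with normexp and -0.0043 with loess and Aquantile, and CDH3 was 0.015 with quantile normalisation. In Cy5 the weaker CTNNB1 probe was 0.024 with mean spot intensity and 0.016 with quantile normalisation. In the ratio by line it was -0.047 with no background subtraction, -0.0095 with loess and -0.065 with the deposited ratios. For miR-489, CDH1 was 0.094 with no background subtraction, and TWIST1 was 0.035 with loess and 0.012 with normexp and loess. TWIST1 was 0.0064 with loess for miR-489 minus miR-504. For miR-504, VIM was 0.0055 with normexp and 0.022 with normexp and loess, and TWIST1 was -0.0079 with normexp and -0.035 with no background subtraction.

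With an array left out, the signs changed as follows. In Cy3 by line, CTNNB1 ranged from -0.033 to 0.38 and -0.17 to 0.18 by probe and CDH3 from -0.17 to 0.041. In Cy5, the weaker CTNNB1 probe ranged from -0.073 to 0.033 and JUP from -0.10 to 0.14. In the ratio by line, SNAI2 ranged from -0.10 to 0.27, CDH1 from -0.36 to 0.11, the weaker CTNNB1 probe from -0.21 to 0.21 and TWIST1 from -0.069 to 0.22. For miR-489, VIM ranged from -0.39 to 0.55 and TWIST1 from -0.19 to 0.18. For miR-489 minus miR-504, VIM ranged from -0.42 to 1.09, JUP from -0.12 to 0.0030, TWIST1 from -0.19 to 0.17 and FN1 from -0.48 to 0.41. For miR-504, VIM ranged from -1.01 to 0.50, TWIST1 from -0.10 to 0.11 and FN1 from -0.031 to 0.87, which passed without the FaDu miR-504 array. FN1 for miR-504 also passed with loess (0.57), normexp and loess (0.42) and the deposited ratios (0.66). For miR-489, FN1 passed with loess (0.52), the deposited ratios (0.58) and without either miR-504 array (0.38), and OCLN with loess (0.63), normexp and loess (0.38), the deposited ratios (0.85) and without the HSC3 miR-489 array (0.67). SNAI2 passed for miR-504 with no background subtraction (0.27) and in Cy5 by line with loess and Aquantile (0.67).

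The labels give no replicate numbers, and the miRNAs were paired by line only in the fit with the line as a block. Signals near background limit VIM, FN1, CDH2 and OCLN in the line where they are low. A lone array was assumed to vary like the others.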
